A study of Papio anubis with 3 samples.

Results

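The H4K20me3 peaks of chromosome 19 that lie outside the proximal domain of that chromosome are described here. The proximal domain is the interval from 19668000 to 22614000, which holds 1471 peaks. Of the 10000 deposited H4K20me3 peaks, 2630 lay on chromosome 19, and 1159 of these (44.1% of the chromosome, 11.6% of the list) lay outside the interval and are the members. They were chosen by position in the same peak list whose values are given below, so all values are descriptions and none is a test. The material was subventricular zone of an adult baboon (Papio anubis), labelled as neural progenitors, and H4K20me3 was mapped in it by ChIP-seq, the sequencing of DNA pulled down with an antibody to the mark. The cells had been pulled from dissociated tissue on beads that carried antibodies to cell type markers, of which GFAP, Nestin, Vimentin, PSA-NCAM and Doublecortin are named as examples. The label does not say which of these markers served for this library, and no gene activity was measured, so the identity of the cells could not be checked against their markers. There was 1 H4K20me3 library, 1 H3K27me3 library and 1 total H4 library, with no replicate of any of them, and more than 200 M tags were sequenced per the labels. No value below therefore has a replicate error.

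H4K20me3 is trimethylation of lysine 20 of histone H4, a repressive mark of constitutive heterochromatin. It is set by the SUV420H enzymes, which are recruited through the heterochromatin protein HP1 to sites that carry H3K9me3. In mammals the mark is best known from pericentromeric satellites, telomeres and retroviral repeats, and it is also found with H3K9me3 over clusters of KRAB zinc finger genes, which code for repressors of such repeats. Human chromosome 19 is rich in clusters of these genes. The gene table used here belongs to another baboon assembly than the peaks (papAnu2), so no gene was assigned to a peak or block, and whether the blocks below lie on zinc finger genes was not tested.

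Outside the domain, the listed H4K20me3 peaks were narrow and lay in groups separated by long stretches with none. The list has the narrow layout of the peak caller MACS2. Whether wider marked regions were broken into several narrow peaks by the caller was not tested. Joining all peaks with gaps under 50 kb gave 62 blocks. Of the 1159 peaks, 842 (72.6%) lay in 10 blocks of at least 50 peaks and 201 (17.3%) in 10 blocks of 10 to 49 peaks. The remaining peaks were 97 (8.37%) in 23 blocks of 2 to 9 peaks and 19 (1.64%) with no neighbour within 50 kb. The count in blocks of at least 50 peaks depends on these settings. It was 117 when peaks were joined within 10 kb. It was 155 where -log10 q had to reach 5, and 202 where the fold had to reach the list median. Cut into 1 Mb windows, the chromosome up to its last peak had 51 windows. Of these, 2 lay wholly inside the domain and could hold no member, and 31 of the other 49 held one. The 4 fullest windows held 50% of the members and the 9 fullest held 80%, with up to 298 in one window. The members covered 417.7 kb, or 0.870% of the 47998 kb of span outside the domain, at 24.1 peaks per Mb against 499 per Mb inside the domain. The domain was set apart by position in the same list, so this contrast is not an independent result. The span runs to the end of the last peak at 50944269, since the length of the chromosome is not used here.

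**Figure D1:**
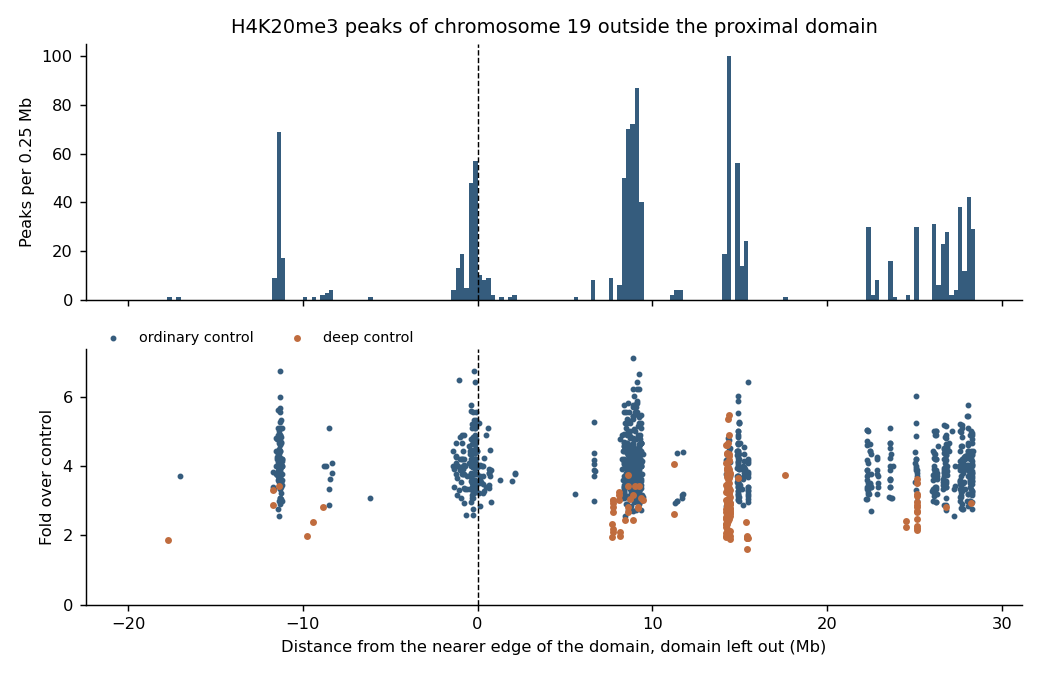
Number of member peaks per 0.25 Mb (top) and fold over control of each peak (bottom) against the distance from the nearer edge of the proximal domain in Mb, with the domain itself left out at the dashed line; orange points are peaks with deep control coverage. The peaks stand in separate columns with empty stretches between them, and 98 of the 161 orange points lie in the column that contains the block of 119 peaks.

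The empty part of the chromosome was larger than the occupied part. There were 12 stretches of at least 1 Mb without any H4K20me3 peak, and together they took up 32.1 Mb, or 63.0% of the length to the last peak. The longest ran from 2643421 to 7938165 (5.29 Mb). Next came 13505859 to 18282558 (4.78 Mb), 40235644 to 44870965 (4.64 Mb), 24759550 to 28191568 (3.43 Mb) and 34361579 to 36824453 (2.46 Mb). The order depends on lone peaks with deep control coverage (explained below), such as that at 40234922 to 40235643. Without the deep peaks the longest stretch was another one, 38106623 to 44870965 (6.76 Mb). The first peak of the chromosome began only at 1972633. An empty stretch means that no place in it is among the 10000 listed peaks. Whether the list is the full output of the caller is not given in the sources used here. In the whole list the lowest ChIP pileup, the number of overlapping fragments at the summit, was 13 at the lowest control level. Weaker H4K20me3 in these stretches would therefore not be listed. The parts played by assembly gaps and by repeats that reads cannot be placed in were not tested. The H3K27me3 list of the same study held 0 of its 709 peaks on chromosome 19, which allows a share of up to 0.423% by counting error alone, so neither mark was listed in these stretches.

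The empty stretches and the domain divided the members into 13 runs, of which 5 held most of the peaks. The run from 30334837 to 32088559 held 334 peaks in 4 blocks (28.8% of the members), and the distal run from 44870966 to 50944269 held 304 in 17 blocks (26.2%). The run from 36824454 to 38106622 held 213 peaks in 5 blocks (18.4%), and the run just before the domain, 18282559 to 19616314, held 146 in 7 blocks (12.6%). The run from 7938166 to 8502067 held 95 in 3 blocks (8.20%). Peaks covered between 1.60% and 7.24% of the length of these 5 runs. The distal run was the most diluted, with blocks scattered over 6073 kb. The median fold was 3.998 in the first, 3.81 in the distal, 3.51 in the third, 4.01 before the domain and 3.998 in the last of those named, so the run from 36824454 was the lowest of the 5. In that run 106 of 213 peaks had deep control coverage, a term explained with the pileups below.

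The 2 sides of the domain were unequal. Within 0.5 Mb before the domain lay 105 peaks that covered 38.5 kb, and within 0.5 Mb after it lay 18 peaks that covered 4.75 kb. Within 1 Mb the counts were 129 and 29, and within 2 Mb they were 146 and 31. The median fold within 1 Mb was 4.01 (quartiles 3.71 to 4.44) before and 3.71 (3.46 to 3.998) after the domain, so the quartile ranges overlapped. The median widths were 301 and 244 bp. No peak within 2 Mb on either side had deep control coverage, and the median control pileups within 1 Mb were 3.59 and 3.99. The edges of the domain are gaps only just above the joining distance. The last member before it (19615837 to 19616314, fold 3.98, width 478 bp) was 52.6 kb from the first domain peak (19668900 to 19669183, fold 3.61, width 284 bp). The last domain peak (22612899 to 22613235, fold 3.33, width 337 bp) was 50.4 kb from the first member after it (22663625 to 22663837, fold 3.55, width 213 bp). The 4 peaks at the edges had ordinary control coverage, and their folds ran from 3.33 to 3.98.

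The largest block outside the domain ran from 31173455 to 32088559 and held 268 peaks over 915.1 kb. Peaks covered 11.6% of it, at 29.3 peaks per 100 kb, with a median width of 317 bp and folds from 2.45 to 7.11 (median 3.998). It was not evenly filled. Its 5 equal parts held 69, 59, 38, 68 and 34 peaks, and their median folds were 4.01, 3.80, 3.94, 4.14 and 3.998. With a joining distance of 10 kb it broke into 22 pieces, 5 of them single peaks, and the largest piece held 47 peaks (31476328 to 31555717). Another piece, 31811689 to 31869584, held 38 peaks and was 36.0% covered. It contained the widest peak of all members, 3661 bp long (31833077 to 31836737, fold 6.22). The longest stretch without a peak inside the block was 37.9 kb. A neighbouring block of 51 peaks, 30891824 to 31118676, ended 54.8 kb before it, so the joining distance alone keeps them apart.

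The remaining blocks of at least 50 peaks differed in length and filling, and their median folds lay closer together. The folds are those of listed peaks only, and at the lowest control of the list the lowest listed fold was 3.11. How far this limit alone keeps the median folds alike was not tested. The block of 90 peaks at 8116742 to 8502067 (385 kb) had 23.4 peaks per 100 kb, and 49 of its peaks lay in a core of 95.1 kb (8297081 to 8392139). The block of 55 peaks at 19480719 to 19616314, the last before the domain, was the shortest of the 10 (135.6 kb) and had 40.6 peaks per 100 kb. Of its 5 equal parts the first held 18 peaks and the last 6, and its median fold of 4.41 was the highest of the 10. The block of 50 peaks at 19187410 to 19428406 preceded it, with 20.7 peaks per 100 kb. The block of 58 peaks at 37469736 to 37646686 had 32.8 per 100 kb, with 26 peaks in the second of its 5 equal parts and 2 in the last. Near the end of the chromosome the block of 50 peaks at 50193987 to 50536619 was the most open of the 10, with 14.6 peaks per 100 kb and 4.69% coverage. The blocks of 50 peaks at 49275507 to 49460286 and of 51 peaks at 50756275 to 50944269 each had 27.1 peaks per 100 kb. Leaving out the block of 119 peaks, median folds of these blocks lay between 3.79 and 4.41 and median control pileups between 3.59 and 4.39. Since 3 of the 10 blocks held exactly 50 peaks, the size limit is soft. The next smaller blocks held 36 (48639093 to 48920371) and 30 peaks (47652866 to 47777700).

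**Figure D2:**
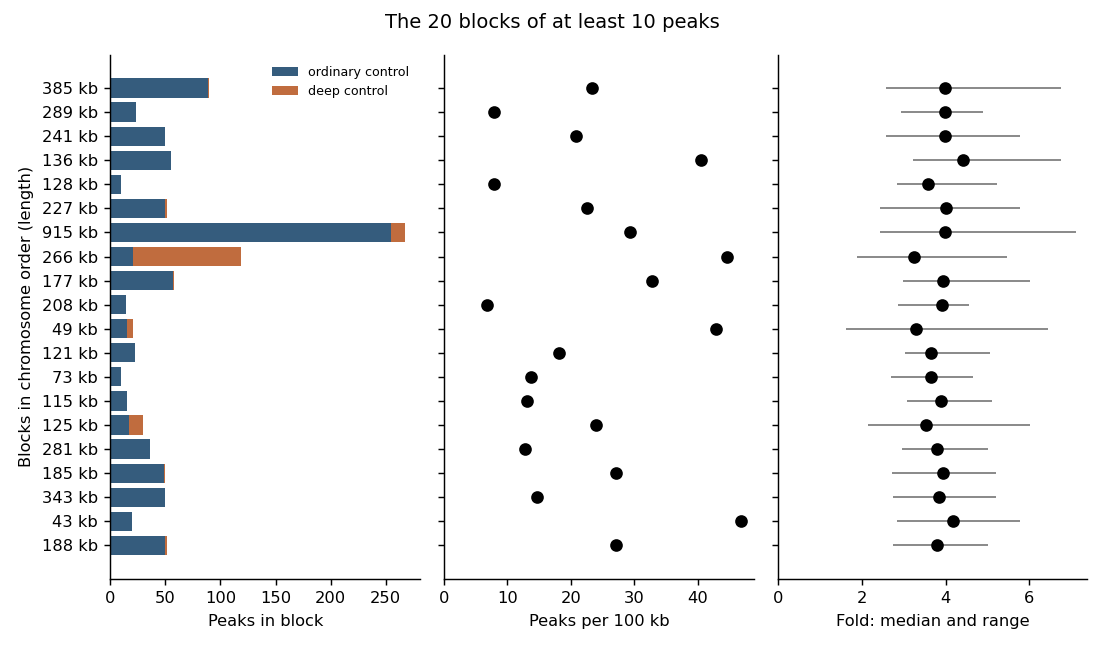
The 20 blocks of at least 10 peaks in chromosome order, labelled by length, with the number of peaks (left, ordinary and deep control stacked), the peaks per 100 kb (middle) and the median fold with its range from lowest to highest peak (right). Density runs from 6.74 to 46.8 peaks per 100 kb. The median folds lie between 3.24 and 4.41, and folds too low to pass the caller are not listed.

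No common shape was seen inside the 10 blocks of at least 50 peaks. The fullest of the 5 equal parts was the first or the last in 6 of the 10. The peak of highest fold lay between 9.07% and 67.4% of the way along the block. Neighbouring peaks of a block were close together. Over 1097 neighbour pairs in the 43 blocks of at least 2 peaks the median gap was 1499 bp (quartiles 526 to 4330), and the shortest was 37 bp. Gaps were under 1000 bp in 442 pairs (40.3%), 1000 to 5000 bp in 409 (37.3%), 5000 to 10000 bp in 110 (10.03%) and wider in 136 (12.4%). Among the 10 large blocks the median gap ran from 596 bp in the block of 58 peaks to 4345 bp in the open block at 50193987. It was 819 bp in the block of 55 and 875.5 bp in the block of 119, which are the densest of the 10, so the order by gap was not the order by density. A block of 20 peaks at 50650028 to 50692739 had the highest density of all blocks of at least 10 peaks (46.8 per 100 kb) with a median gap of 1424 bp.

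**Figure D3:**
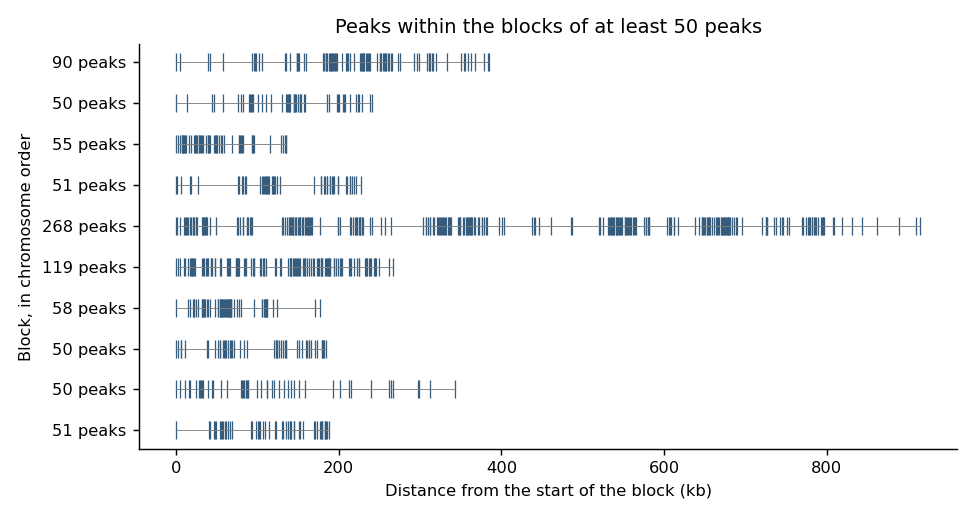
Position of each peak (vertical marks) in the 10 blocks of at least 50 peaks, as the distance from the start of the block in kb, in chromosome order from top to bottom. Peaks come in groups with bare stretches between them, as in the block of 268 peaks. The block of 119 peaks has no bare stretch longer than 12.6 kb.

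Individual peaks were narrow and modest in height. The median width of the members was 296 bp (95% interval 286 to 306, by order statistics), close to the 281 bp (278 to 285) of the other chromosomes and below the 384 bp (367 to 396) of the domain. The intervals cover counting error only and treat neighbouring peaks as independent. Widths ran from 213 to 3661 bp, and 597 members (51.5%) were under 300 bp. Only 16 members (1.38%) reached 1000 bp, against 3.93% of the other chromosomes, 4.22% of the whole list and 7.89% of the domain. The median of the authors' fold over control was 3.82 (3.78 to 3.90), against 3.78 (3.78 to 3.80) on the other chromosomes and 4.28 (4.22 to 4.37) in the domain. A fold of at least 5 was reached by 103 members (8.89%, exact 95% interval 7.31 to 10.7), against 9.70% of the other chromosomes and 24.6% of the domain. The share of the whole list, which includes the domain, was 11.8%. A -log10 q of at least 5 was reached by 528 members (45.6%, 42.7 to 48.5), against 44.1% of the whole list and 40.8% (39.7 to 41.9) of the other chromosomes. In fold and width the members thus lay nearer to the other chromosomes than to the domain. The summit stood at a median of 49.8% of the width of the peak (quartiles 35.5 to 64.2).

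Behind these folds stood small numbers of fragments. The ChIP pileup and the control pileup set against it by the caller were solved from the fold and p of each peak. The median ChIP pileup was 20 fragments (quartiles 18 to 24), and a pileup of 20 has an exact Poisson 95% interval of 12.2 to 30.9. The median control pileup was 4.39 (3.59 to 5.43). For 213 members the control stood within 0.01 of the lowest value of the list, 3.50, and their pileups ran from 14 to 31 fragments (folds 3.33 to 7.11). The peak of highest fold, 31502191 to 31502647 in the block of 268 peaks, had a fold of 7.11 from 31 fragments (21.1 to 44.0). Next were 8368721 to 8369284 and 19492763 to 19493266, each with a fold of 6.76 from 30 fragments (20.2 to 42.8). They were followed by 31827033 to 31827828 with 6.66 from 29 fragments and 18589445 to 18589790 with 6.50 from 34. The interval of each of these 5 includes or overlaps those of the others and of a median peak, so their order is not resolved by counting error. The last of the 5 lay in a small block of 3 peaks, outside every large block. Wider peaks had more fragments at the summit, with a median of 19 at widths of 200 to 300 bp and 24 at 500 to 1000 bp.

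Where the control was deep, the same mark was listed at lower folds and higher pileups. A control pileup of more than 2 times the lowest in the list, over 7.00, is called deep, and the others ordinary. Of the members 161 (13.9%, exact 95% interval 12.0 to 16.0) were deep, against 14.3% of the whole list, 16.1% of the other chromosomes and 5.51% of the domain. They had a median ChIP pileup of 46 fragments, a control pileup of 14.8, a fold of 2.93 and a width of 386 bp. The 998 ordinary members had 20 fragments, 4.08, 3.98 and 289 bp. At deep control a lower fold passes the caller, so the folds of deep and ordinary peaks are not on equal terms. Whether reads that map to several places were kept is not given in the sources used here, and their part in the deep pileups was not tested.

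The deep members were gathered in few places. A block of 119 peaks at 36824454 to 37090910 held 98 of the 161 (60.9%), and 82.4% of its peaks were deep. Outside it 63 of 1040 members (6.06%, 4.69 to 7.68) were deep. This block also had the highest coverage of the 10 large ones (20.7% of 266 kb) and the highest density (44.7 peaks per 100 kb), with a median width of 403 bp. Its largest gap was 12.6 kb, while the other 9 had gaps of 20.1 kb or more. Its median fold of 3.24 was the lowest of the 10 and its median control pileup of 13.2 the highest. Its deep peaks had a median of 47.5 fragments against a control of 14.8 (fold 3.06, quartiles 2.68 to 3.76). The 63 deep members elsewhere had 41 fragments against 14.4 (fold 2.81, 2.25 to 3.12). On the other chromosomes the 1188 deep peaks had 41 fragments against 12.3 (fold 2.91, 2.46 to 3.40). In the domain the 81 deep peaks had 37 fragments against 9.17 (fold 3.53, 2.93 to 4.19). These quartile ranges of fold overlap. The 21 ordinary peaks of the block had a median fold of 3.78, and the 977 ordinary members elsewhere had 3.98.

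**Figure D4:**
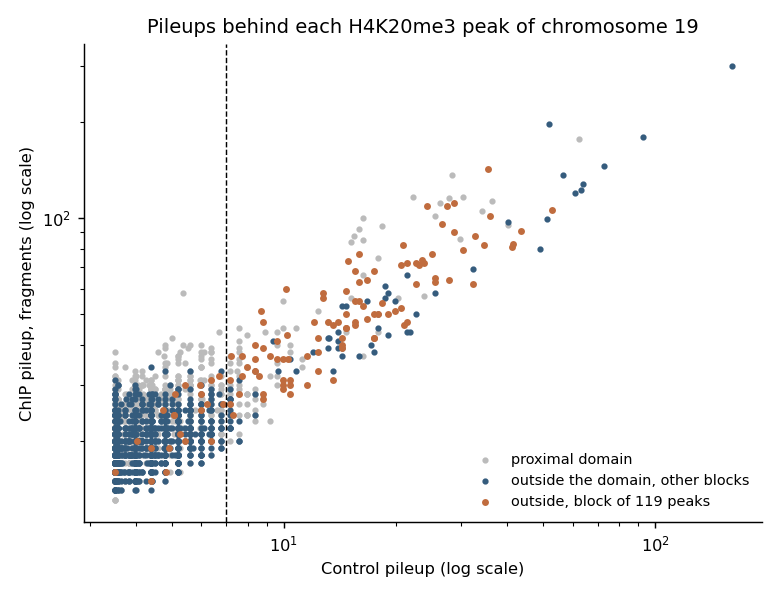
ChIP pileup at the summit in fragments against the control pileup, both on log scales, for each H4K20me3 peak of chromosome 19; the dashed line is the limit of deep control at 7.00. Peaks of the block of 119 (orange) lie mostly to the right of the line, and most other peaks outside the domain (blue) are crowded at its left between 14 and 34 fragments.

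The deep members included both the firmest calls and the lowest folds. The highest -log10 q of all members, 47.5, belonged to a peak with no neighbour within 50 kb at 40234922 to 40235643. It had 197 fragments (exact Poisson 95% interval 170 to 227) against a control of 51.8, a fold of 3.75. It stood alone between empty stretches of 2.13 and 4.64 Mb. The next, 36.1, was at 37025208 to 37025966 in the block of 119 peaks, with 142 fragments (120 to 167) against 35.5 and a fold of 3.92. The highest control pileups went with low folds. The first peak of the chromosome, 1972633 to 1973177, had 300 fragments (267 to 336) against 161, a fold of 1.86. Peaks at 38058459 to 38059103 and 38057599 to 38058228 had folds of 1.92 and 1.97 against controls of 92.9 and 73.0. Those at 9907159 to 9907497 and 38065430 to 38065877 had 1.99 and 1.92 against 63.8 and 63.0. Of these 5 peaks of highest control, 3 lay near the start of a short block of 21 peaks (38057599 to 38106622), in which 6 peaks were deep and folds ran from 1.62 to 6.44. A block of 9 peaks at 30334837 to 30357471 was deep throughout, with a median fold of 2.68, and so were 13 of the 30 peaks at 47652866 to 47777700.

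The 5 widest members differed in control coverage. Of these, 3 lay at ordinary control, namely the peak of 3661 bp above, one of 1605 bp at 29264893 to 29266497 (24 fragments, fold 5.28) in a block of only 7 peaks, and one of 1570 bp at 31510840 to 31512409 (28 fragments, fold 5.35). The other 2 lay in the block of 119 peaks, at 37006632 to 37008095 (1464 bp, 109 fragments against 27.5, fold 3.86) and at 37046492 to 37047935 (1444 bp, 88 against 32.7, fold 2.64).

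Blocks of similar size occurred on the other autosomes. Only blocks within the range of the member blocks, 50 to 268 peaks, were compared, so any larger block on the other autosomes was left out. Joined in the same way, the other autosomes held 10 blocks in this range (54 to 143 peaks, 904 in all). Their density had a median of 34.4 peaks per 100 kb (range 23.3 to 68.5), against 27.1 (14.6 to 44.7) for the member blocks. Coverage was 14.1% (8.22 to 30.9) against 8.86% (4.69 to 20.7), and the median fold was 3.90 (2.20 to 4.19) against 3.97 (3.24 to 4.41). The ranges overlapped in all 3 measures, and no test of the differences was made. The median control pileups of the blocks were 4.36 (3.59 to 48.8) on the other autosomes against 4.22 (3.59 to 13.2). Both ranges reach into deep control, where folds are not on equal terms with those at ordinary control.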

How the data were processed

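The submitters' processing notes name Bowtie 1.1.1 and MACS2 2.1.0.20140616; their parameters and the control library are not given in the sources used here. Chromatin had been fixed in 1.1% formaldehyde and sheared to 200 to 500 bp, per the labels' protocols. The peak lists have the broad (H3K27me3) and narrow (H4K20me3) layouts of MACS2 on papAnu2, the build in the file names. The deposited fold is the caller's ratio of ChIP to control. The deposited -log10 p and -log10 q are the caller's, and the deposited score, the whole part of 10 times -log10 q in all 10000 rows, was not used.

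ChIP and control pileups were solved from fold = (ChIP + 1) / (control + 1) and p as the Poisson tail above the ChIP pileup. A whole ChIP pileup gave back the -log10 p of all 10000 peaks within 0.001. Solving and joining were tested on simulated data. The control pileups are the caller's expected values and not raw counts. Total reads per library are unknown here, and summit pileups are the highest point of each peak. Intervals of shares are exact (Clopper-Pearson), 95%; those of pileups are exact Poisson; and the limit for a count of 0 is 3 counts. All cover counting error only. Text coordinates count from 1. Peaks inside the interval 19668000 to 22614000 were left out.

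The members and lists were chosen with earlier results of these data known. Named by rule were each block of at least 50 peaks, the 5 peaks of highest fold, width and control pileup, and the 5 longest empty stretches. Other named peaks and blocks were chosen after their values were seen. No test was made, since there is 1 library per mark. Python 3.11.15, numpy 2.4.6, scipy 1.17.1, pandas 2.3.3 and matplotlib 3.10.9 were used.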

Additional observations from a re-analysis of the deposited data

How the results depend on the processing

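Of 33 alternative values 16 stayed within 1.5 times (counts, lengths) or within the 95% interval (medians, shares) and 17 moved further. The measures have no direction, so a reversal was not possible. Leaving out peaks in contact with the domain interval could not change the count, since 0 members touched it. Size limits of 30, 55 and 2 peaks for blocks and the deep limit of 3 times the lowest control were added after seeing the data. A -log10 q of at least 5 left 528 peaks (224.7 kb, median width 349.5 bp, median fold 4.43), of which 155 were in blocks of at least 50. A fold of at least the list median left 576 peaks (222.5 kb, 327 bp), 202 of them in such blocks, and a longest empty stretch of 8.12 Mb. With ordinary control only, the median fold was 3.98, and 998 peaks and 656 peaks in 8 such blocks remained. The longest empty stretch was then 6.76 Mb (38106623 to 44870965). Joining within 10, 25, 100 and 200 kb gave 198, 99, 38 and 28 blocks, and within 10 kb 117 peaks were in blocks of at least 50. These were the pieces of 50 and 67 peaks of the block at 36824454 to 37090910, with 43 and 55 deep peaks. No piece with mostly ordinary control reached 50 peaks at that distance. Deep members were 9.40% at 3 times the lowest control. The share of peaks on zinc finger genes was not run, since the gene table is of another assembly. No paired analysis was possible because each mark has 1 library, which also leaves no replicate to leave out. The lowest ChIP pileup listed at the lowest control was 13 fragments. The labels give more than 200 M tags but no exact read totals, so what depth alone limits was not tested.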

Other observations

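Most solved control pileups of the members fell on multiples of a common step or near the lowest value of the list. Within a tolerance of 0.001, 657 of 1159 (56.7%) were whole multiples of 0.39866, the step that fitted the most members between 0.3 and 0.5. No step more than 0.01 away fitted more than 233. A further 213 stood within 0.01 of the lowest value of the list, so 870 were accounted for by these values together. The step was searched for in the same data, and its meaning was not tested.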
